A study of Mus musculus with 4 samples.

Results

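Il1b, Il1a, Il18, Il1rn, Tnf, Il10, Nlrp3, Casp1, Pycard and Cxcl2 are the inflammasome parts and inflammatory cytokines described here in single kidney cells of trnE mutant and wild-type mice. They are 10 of the 32285 genes listed in the deposited matrices and were picked by symbol, with no measured value in the rule. All 10 were detected.

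Kidneys of mice whose mitochondrial DNA carries a point mutation in trnE, which encodes the glutamate transfer RNA, were set against those of wild-type C57BL/6J mice. Single cells were sequenced in droplets (10x Genomics, 3′ ends). There were 2 trnE mutant libraries, labelled with mutation loads of 79% and 76% (replicates 1 and 2), and 2 wild-type libraries, for which no load was given. Kidneys of every group were digested with Liberase TM at 37 °C for 30 minutes and live cells were sorted with a viability dye, so cells that did not survive digestion were not sampled. Ages, sexes, litters and the strain background of the mutants were not given in the sources used here, and the mutation itself cannot be read from these gene counts. The deposited file name of wild-type replicate 1 follows the pattern of a mutant name, and that of mutant replicate 1 holds another number than its load. Groups were taken from the labels.

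The inflammasome is a protein complex that forms in the cytosol when a sensor such as NLRP3 meets damage or microbial signals. The adaptor ASC, encoded by Pycard, joins the sensor to caspase-1, which cleaves the precursors of IL-1β and IL-18 into their active forms and opens the way to pyroptosis through gasdermin D. Transcription of Il1b, Tnf, Cxcl2 and Nlrp3 is induced by NF-κB, whereas the cleavage step leaves no trace in RNA, so the values below are transcript levels and not inflammasome activity.

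The genes lie on 7 chromosomes of mm10. Il1b (ENSMUSG00000027398, chromosome 2, 129364570 to 129371139, minus strand) and Il1a (ENSMUSG00000027399, chromosome 2, 129299610 to 129309972, minus strand) are neighbours, and Il1rn (ENSMUSG00000026981) is on the same chromosome from 24336853 to 24351494 on the plus strand. Il18 (ENSMUSG00000039217, 50554827 to 50581840, plus strand) and Casp1 (ENSMUSG00000025888, 5298517 to 5307265, plus strand) are on chromosome 9. Tnf (ENSMUSG00000024401) is on chromosome 17 from 35199381 to 35202007 on the minus strand, Nlrp3 (ENSMUSG00000032691) on chromosome 11 from 59541568 to 59566956 on the plus strand and Cxcl2 (ENSMUSG00000058427) on chromosome 5 from 90903871 to 90905938 on the plus strand. Pycard (ENSMUSG00000030793) is on chromosome 7 from 127989708 to 127993867 on the minus strand, and Il10 (ENSMUSG00000016529) on chromosome 1 from 131019845 to 131024974 on the plus strand.

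Nlrp3 and Cxcl2 had levels over cell types that ran close to those of Il1b, and Tnf was called together with Il1b in the proximal tubule, so the sequence before the start of these 4 genes is shown. The windows hold 250 bases upstream of the RefSeq start in the mouse build GRCm38.p6, on the strand of the gene. Capitals mark matches to TATAAA (the TATA box) in Il1b and Tnf and to the kappa B motif, the binding sequence of NF-κB, in Cxcl2 and Nlrp3.
Il1b, chr2:129371140-129371389, minus strand: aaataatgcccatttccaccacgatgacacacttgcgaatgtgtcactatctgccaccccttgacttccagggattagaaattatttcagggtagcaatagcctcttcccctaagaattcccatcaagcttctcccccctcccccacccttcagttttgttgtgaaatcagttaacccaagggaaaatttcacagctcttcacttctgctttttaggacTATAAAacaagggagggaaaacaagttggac
Tnf, chr17:35202008-35202257, minus strand: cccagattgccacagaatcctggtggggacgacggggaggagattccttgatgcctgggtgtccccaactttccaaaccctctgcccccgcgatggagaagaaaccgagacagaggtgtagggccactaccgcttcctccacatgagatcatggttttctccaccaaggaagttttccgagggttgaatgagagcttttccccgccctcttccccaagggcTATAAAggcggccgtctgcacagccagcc
Cxcl2, chr5:90903649-90903898, plus strand: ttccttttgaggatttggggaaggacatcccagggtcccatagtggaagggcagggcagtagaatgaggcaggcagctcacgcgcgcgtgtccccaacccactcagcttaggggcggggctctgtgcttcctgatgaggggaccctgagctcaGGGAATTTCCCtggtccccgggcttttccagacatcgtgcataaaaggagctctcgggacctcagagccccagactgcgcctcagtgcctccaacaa
Nlrp3, chr11:59541319-59541568, plus strand: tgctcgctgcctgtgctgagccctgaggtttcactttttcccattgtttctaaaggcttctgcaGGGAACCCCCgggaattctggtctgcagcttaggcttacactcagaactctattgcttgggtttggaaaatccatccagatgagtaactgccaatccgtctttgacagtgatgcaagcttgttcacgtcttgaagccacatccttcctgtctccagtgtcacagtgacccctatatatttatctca

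TATAAA stood close upstream of the start in Il1b and Tnf, with its first base at -31 and at -29. The capitals in Cxcl2 hold 2 overlapping kappa B matches, 1 on each strand, from -97 and -96, and those in Nlrp3 hold 1 match from -186. RefSeq gave 12 windows for 9 of the 10 genes, since some have several starts. Searching both strands, kappa B letters were in 2 of these 12 windows and TATAAA in 4, against 7.25% and 12.4% of 32851 mouse promoter windows of the same length. TGANTCA, the AP-1 motif, was in 2 of the 12, against 6.75% of all. A match is a run of letters and not a measured binding site.

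Cells were grouped into 14 classes by clustering without the 10 genes, and each class was named from marker lists (macrophage-like and so on, shortened to macrophages below). After filters the mutants held 9535 and 8916 cells and the wild types 5671 and 6306, with a median of 4366 to 6465.5 UMIs (counted transcripts) per cell. Wild-type replicate 2 stood apart from the other 3 libraries: macrophages, monocytes, dendritic cells and neutrophils together made up 40.2% and 30.5% of mutant cells and 29.2% and 2.97% of wild-type cells. Its 187 myeloid cells comprised 58 macrophages, 69 monocytes, 54 dendritic cells and 6 neutrophils, so its myeloid values rest on few cells. Any pair of libraries shared 14 to 26 cell barcodes, at most 0.342% of the smaller one.

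Il1b, the gene of the main inflammasome substrate, came almost wholly from myeloid cells. The pooled myeloid cells held 97.4% and 98.2% of the 25885 and 15458 Il1b UMIs of the mutants and 98.3% and 95.5% of the 6822 and 1702 Il1b UMIs of the wild types. Over all kept cells, Il1b was at 442 and 245 CPM (the UMIs of a gene scaled by the total UMIs of the cells summed) in mutants and at 188 and 30.9 CPM in wild types. Both mutants were above both wild types, and the order of the 4 libraries was that of their myeloid shares. The edgeR difference over all cells did not pass (log2 fold change 1.85, SE 0.939, adjusted p = 0.781). A sum over all cells cannot tell more myeloid cells from more Il1b RNA per cell.

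Neutrophils, few in these suspensions, had the highest Il1b level of any class. Their Il1b was at 15528 and 13519 CPM in mutants (90 and 53 cells) and at 10834 and 16424 CPM in wild types (51 and 6 cells), with overlapping groups. A neutrophil carried at least 1 Il1b UMI in 93.3% and 92.5% of mutant cells and in 76.5% and 83.3% of wild-type cells. Neutrophils made up 0.944% and 0.594% of mutant cells and 0.899% and 0.0951% of wild-type cells, but held 19.3% and 19.3% of all Il1b UMIs in mutants and 28.1% and 29.4% in wild types. Neutrophils were not tested, because wild-type replicate 2 had fewer than 20.

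Below neutrophils came monocytes, at 554 and 1088 CPM in mutants and 653 and 798 CPM in wild types. Dendritic cells were at 661 and 554 CPM in mutants and 163 and 447 CPM in wild types, and macrophages at 709 and 240 CPM in mutants and 374 and 410 CPM in wild types. The ranges of these 3 classes overlapped, and all lay above every other class, of which the next was the distal convoluted and connecting tubule at 17.5 ± 23.5 CPM (SD, n = 4 libraries). In wild-type replicate 1, 41 of the 44 Il1b UMIs of that class lay in 1 cell, which carried 512 neutrophil marker UMIs, and all 43 of its Cxcl2 UMIs lay in 1 cell with 512 as well.

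**Figure D1:**
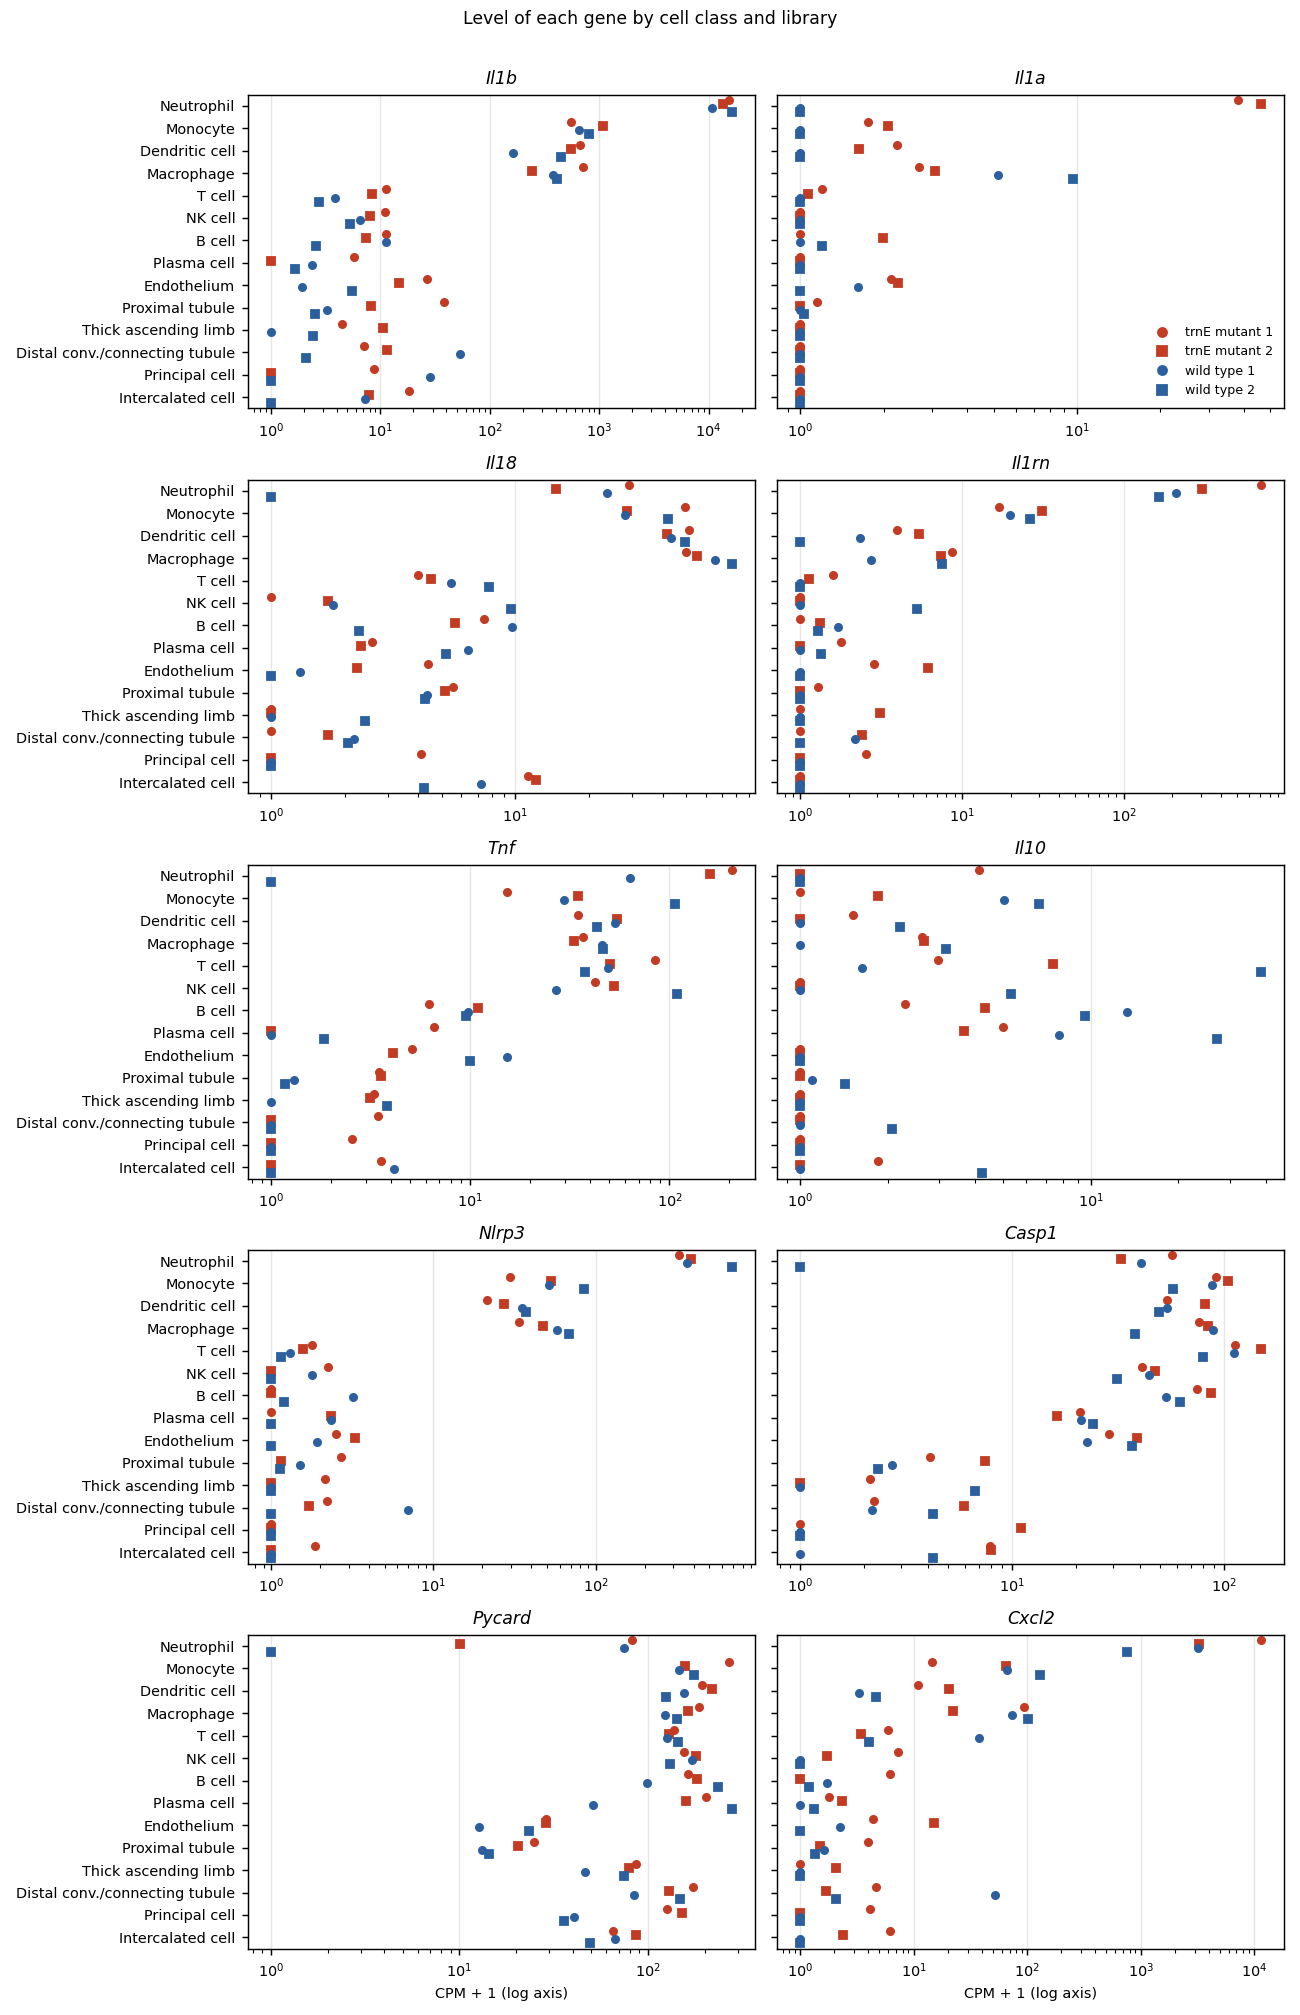
Level of each of the 10 genes (CPM + 1, log axis) in each cell class, 1 point per library, with trnE mutants and wild types in different colours. Il1b, Cxcl2, Il1rn and Nlrp3 peak in neutrophils, Il18 in macrophages, dendritic cells and monocytes, and Casp1 and Pycard reach their levels in lymphoid and myeloid classes alike.

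The genes fell into a few patterns over the classes. Nlrp3, the sensor, was highest in neutrophils at 324 and 381 CPM in mutants and 362 and 688 CPM in wild types. It followed in monocytes, macrophages and dendritic cells and was below 6 CPM in all other tested classes. Over 53 sums of a class in a library (14 classes), Nlrp3 had the highest Pearson correlation with Il1b of 9679 genes on log2 CPM, at 0.944. Next came Sirpb1b at 0.942, Ccl6 at 0.939, Cd300ld at 0.939 and Ptafr at 0.938. The sums share libraries and differ in depth, so these values are a description. Cxcl2 stood at 0.865, Il1rn at 0.856, Il18 at 0.743, Casp1 at 0.415 and Pycard at 0.112.

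Cxcl2, a chemokine that draws in neutrophils, was at 11595 and 3289 CPM in mutant neutrophils and at 3202 and 754 CPM in wild-type ones. Both mutants were above both wild types, with mutant replicate 2 and wild-type replicate 1 close together. Neutrophils held 66.0% and 45.8% of the Cxcl2 UMIs of the mutants and 42.1% and 11.6% of those of the wild types. Il1rn, whose product blocks the IL-1 receptor, was likewise highest in neutrophils, at 709 and 304 CPM in mutants and 209 and 164 CPM in wild types. Monocytes came next at 15.8 and 30.4 CPM in mutants and 18.7 and 25.4 CPM in wild types. Neither gene was tested in neutrophils, where the level of immediate early genes, which respond to stress and digestion, was 8963 and 10516 CPM in mutants and 11604 and 14949 CPM in wild types.

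Il18, the other cytokine that caspase-1 activates, had another distribution. It was highest in macrophages at 48.7 and 54.3 CPM in mutants and 64.2 and 76.0 CPM in wild types, and overlapped there with dendritic cells (50.4 and 40.5 CPM in mutants, 42.4 and 48.3 CPM in wild types). Neutrophils were at 28.0 and 13.6 CPM in mutants and 22.6 and 0 CPM in wild types. Outside the myeloid cells its mean was highest in intercalated cells, the acid-base transporting cells of the collecting duct, at 10.3 and 11.1 CPM in mutants and 6.25 and 3.22 CPM in wild types. The sums for intercalated cells rest on few UMIs, and Il18 did not pass the filter there. Of all genes compared, Sirpb1a (0.872), Clec12a (0.860), P2ry6 (0.846), Il6ra (0.844) and Snx10 (0.838) had the patterns most like that of Il18.

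Casp1 and Pycard were spread over many classes. Casp1, the protease, was at 112 and 149 CPM in mutant T cells and 111 and 78.8 CPM in wild-type T cells, and at 91.3 and 104 CPM in mutant monocytes and 87.0 and 56.5 CPM in wild-type monocytes. Macrophages were at 75.7 and 83.2 CPM in mutants and 87.5 and 36.9 CPM in wild types, where the low value rests on 58 cells. Pooled myeloid cells held 71.2% and 43.4% of Casp1 UMIs in mutants and 63.5% and 6.85% in wild types, the smallest share lying in the library with few myeloid cells. Pycard, the adaptor, was at 192 and 216 CPM in mutant dendritic cells and 154 and 123 CPM in wild-type ones. It also reached 172 and 129 CPM in the mutant distal convoluted and connecting tubule and 83.1 and 147 CPM in the wild-type one, a tubule class in which Nlrp3 was between 0 and 5.94 CPM.

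Tnf was a lymphoid as well as a myeloid transcript. T cells were at 83.2 and 49.5 CPM in mutants and 48.1 and 36.6 CPM in wild types, and held 26.0% and 39.6% of Tnf UMIs in mutants and 17.4% and 47.3% in wild types. Natural killer cells were at 41.3 and 51.9 CPM in mutants and 25.9 and 108 CPM in wild types, and macrophages at 35.8 and 32.0 CPM in mutants and 44.8 and 45.6 CPM in wild types. From neutrophils to macrophages, each class overlapped its neighbour in the order of Tnf levels.

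Il10, the anti-inflammatory cytokine, and Il1a were sparse, with 53 and 143 Il10 UMIs and 62 and 60 Il1a UMIs in the mutants and 36 and 500 Il10 UMIs and 26 and 9 Il1a UMIs in the wild types. Il10 came from lymphoid cells in most libraries. T cells were at 1.99 and 6.4 CPM in mutants and 0.632 and 37.6 CPM in wild types, and 159 of the 237 UMIs in the highest library lay in 8 cells. B cells were at 1.29 and 3.33 CPM in mutants and 12.3 and 8.58 CPM in wild types, and plasma cells at 3.99 and 2.65 CPM in mutants and 6.74 and 26.1 CPM in wild types. Il1a, which signals through the same receptor as Il1b, had 12 and 10 UMIs in mutant neutrophils and 0 and 0 in wild-type ones. The mutant UMIs came from 4 and 2 cells. A count of 0 of 51 and of 6 cells allows a share of cells with a UMI of up to 5.88% and 50%, above the 4.44% and 3.77% measured in mutants, so a difference in that share was not detectable at this depth. By level, mutants were at 37.3 and 45.4 CPM, above the 17.0 CPM that a count of 0 allows in wild-type replicate 1 and below the 98.3 CPM it allows in wild-type replicate 2.

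**Figure D2:**
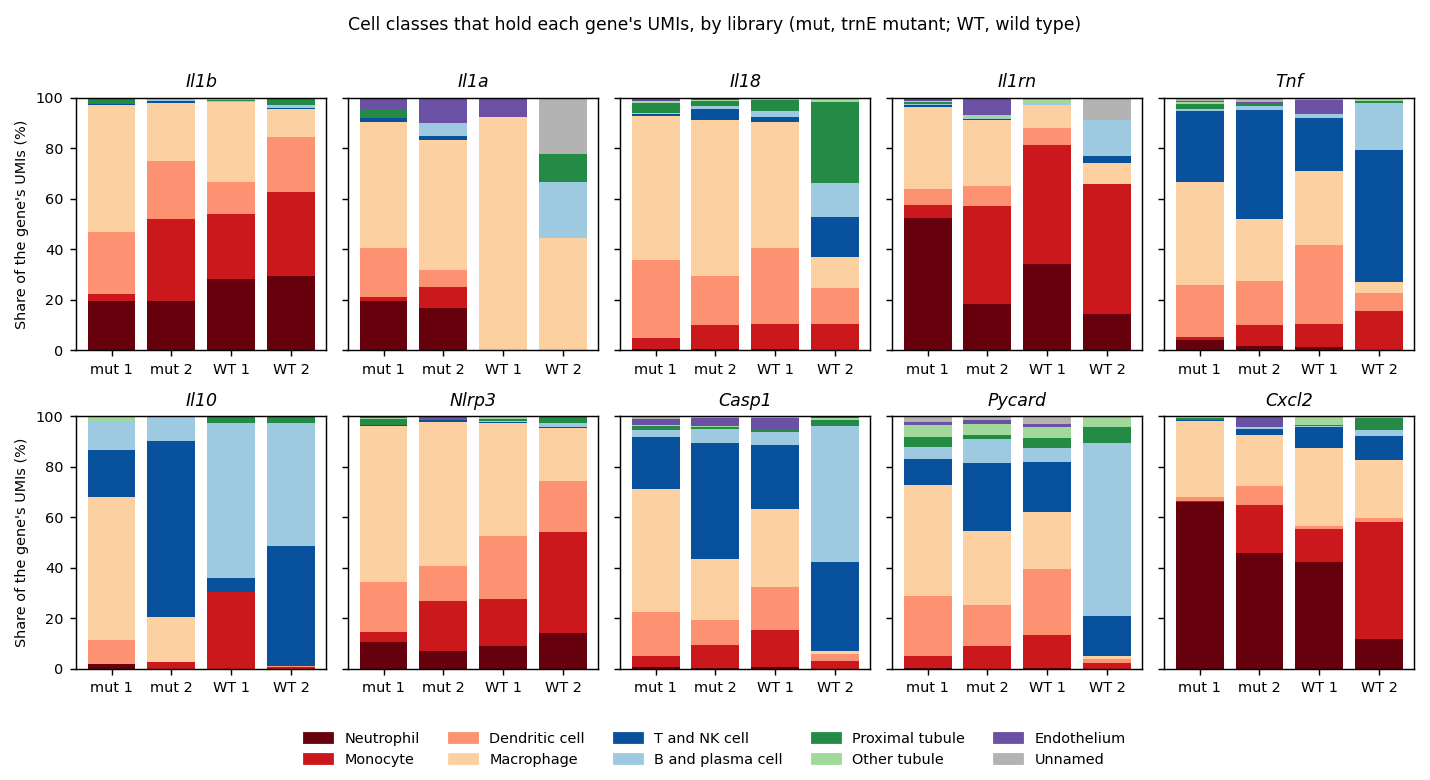
Share of each gene's UMIs (%) held by groups of cell classes in each library, mutants left of wild types. Il1b and Nlrp3 are myeloid in all 4 libraries, whereas Casp1, Pycard, Tnf and Il10 shift toward lymphoid cells in wild-type replicate 2, where myeloid cells are 2.97% of cells.

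Within macrophages, Il1b and Cxcl2 were concentrated in 1 cluster. It was led by the chemokines Ccl12, Ccl4, Ccl2 and Ccl3 and held 433 and 112 cells of mutants and 68 and 4 of wild types, or 15.4% and 6.43% of mutant macrophages and 8.05% and 6.90% of wild-type ones. It held 61.5% and 46.0% of macrophage Il1b UMIs and 90.4% and 89.0% of macrophage Cxcl2 UMIs in mutants. In wild types it held 62.2% and 29.6% of Il1b and 97.8% and 100% of Cxcl2, where the 100% is 46 UMIs of 1 cell. The 10 genes had no part in forming the clusters, although other genes of the same response did.

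Il1b was at 2038 and 1298 CPM in the mutant cells of that cluster and at 1876 and 1328 CPM in the wild-type cells, with overlapping groups. In the largest macrophage cluster, led by Ccl8, Apoe and Pf4, Il1b was at 322 and 128 CPM in mutants and 110 and 336 CPM in wild types. Cxcl2 was at 389 and 223 CPM in mutants and 568 and 1091 CPM in wild types in the Ccl12 cluster, against 9.96 and 2.25 CPM in mutants and 2.46 and 0 CPM in wild types in the Ccl8 cluster. The 1091 CPM rests on 46 UMIs of 1 cell. Immediate early genes moved along with Il1b and Cxcl2. They summed to 8981 and 7242 CPM in mutants and 8890 and 15393 CPM in wild types in the Ccl12 cluster, and to 851 and 679 CPM in mutants and 821 and 747 CPM in wild types in the Ccl8 cluster. Their part in the Il1b and Cxcl2 levels was not tested.

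Il18 differed less between the same clusters and was lower in the Ccl12 cluster in each library, at 43.1 and 47.1 CPM in mutants and 58.8 and 47.4 CPM in wild types in the Ccl12 cluster and at 50.9 and 56.1 CPM in mutants and 66.4 and 90.2 CPM in wild types in the Ccl8 cluster. Dendritic cells split by subset. Il1b was at 1210 and 689 CPM in mutants and 250 and 605 CPM in wild types in the Cd209a cluster, and at 71.3 and 214 CPM in mutants and 31.7 and 128 CPM in wild types in the Xcr1 cluster. In each of the 4 libraries the Cd209a cluster was the higher of the pair.

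When each macrophage was thinned to 1000 UMIs, Cxcl2 was found in 6.34% and 2.05% of mutant cells with Il1b and in 0.845% and 0.201% of mutant cells without it. In wild types it was found in 5.83% and 9.09% of cells with Il1b and in 0.838% and 0% of cells without it. The last pair rests on 11 cells with Il1b, of which 1 carried Cxcl2.

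**Figure D3:**
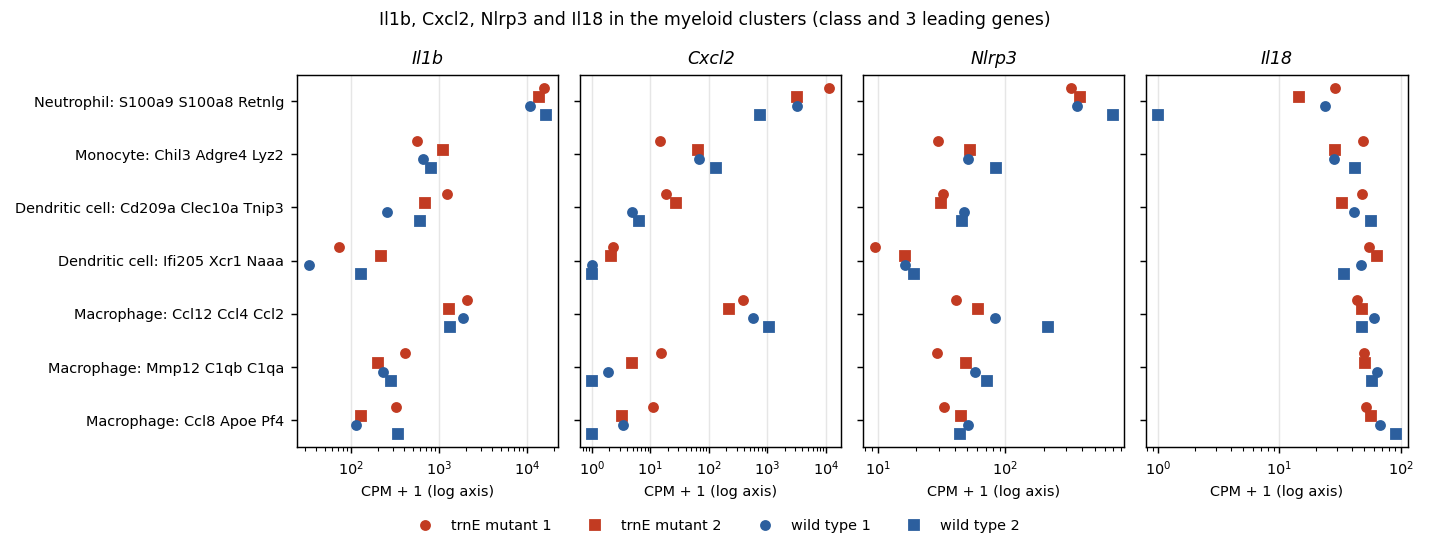
Il1b, Cxcl2, Nlrp3 and Il18 (CPM + 1, log axis) in each myeloid cluster, named by class and 3 leading genes, 1 point per library. Il1b and Cxcl2 are high in neutrophils and in the Ccl12 macrophage cluster, whereas Il18 stays within a narrower range over the macrophage, monocyte and dendritic clusters.

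Mutants were compared with wild types per class with edgeR's quasi-likelihood test on UMIs summed per library, with Benjamini-Hochberg adjustment over all genes of the class. With 2 mice a group, the p-values measure the spread between these mice only. Fold changes use TMM scaling, so they can differ from the ratio of the CPM values given here. The sums of 12 named classes, the pooled myeloid cells and all cells gave 140 pairs of a gene and a class, of which 76 passed the filter on low counts. Past an adjusted p of 0.05 were 2 pairs, Il1b and Tnf in the proximal tubule. Of all genes tested, edgeR called 0.538% in the proximal tubule, 1.65% in the thick ascending limb, 0.0703% in the distal convoluted and connecting tubule, 0.047% in plasma cells, 0.0158% in macrophages and 0% in each of the other sums. DESeq2 likewise called these 2 pairs and no other.

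In the proximal tubule, Il1b was at 36.8 and 7.22 CPM in mutants and at 2.23 and 1.5 CPM in wild types, from 501 and 45 UMIs in mutants and 22 and 42 in wild types. Both mutants were above both wild types, and the mutants differed from each other more than the wild types did. Il1b averaged 22.01 ± 20.9 CPM in mutants and 1.86 ± 0.514 CPM in wild types (SD, n = 2 each), and the difference passed the edgeR test (log2 fold change 3.76, SE 0.584, adjusted p = 0.0218). Tnf was at 2.50 and 2.57 CPM in mutants and 0.303 and 0.178 CPM in wild types, from 34 and 16 UMIs in mutants and 3 and 5 in wild types. Tnf passed as well (log2 fold change 3.70, SE 0.759, edgeR adjusted p = 0.0358). Its wild-type levels lay under the filter on low counts, so Tnf entered the test through its mutant level only. Its groups therefore had to lie apart, and their gap is not separate support.

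The other 3 genes that passed the filter in the proximal tubule were above wild type in both mutants but did not pass the test. Casp1 was at 3.09 and 6.42 CPM in mutants and 1.72 and 1.32 CPM in wild types (log2 fold change 1.86, SE 0.584, edgeR adjusted p = 0.208). Pycard was at 23.8 and 19.6 CPM in mutants and 12.1 and 13.4 CPM in wild types (log2 fold change 0.96, SE 0.324, edgeR adjusted p = 0.253). Il18 was at 4.56 and 4.17 CPM in mutants and 3.34 and 3.25 CPM in wild types, a log2 fold change of 0.60. Il1a, Il1rn, Il10, Nlrp3 and Cxcl2 did not pass the filter there. Of 13373 genes tested, 0.464% were called higher in mutants and 21.6% had both mutants above both wild types, beside 2 and 5 of the 5 genes that passed here. At an unadjusted p under 0.05 were 4 of these 5 and 9.59% of all genes. The median log2 fold change was 1.86 over those 5 and 0.0172 over all genes. A gene that passes the filter through its high group, as Tnf did, had to differ and to count among those above.

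Several measured values moved with the Il1b and Tnf differences in the proximal tubule, and others did not. Of the 501 Il1b UMIs of mutant replicate 1, 348 (69.5%) lay in 7 cells with 10 or more each, and these cells held a median of 75 macrophage marker UMIs against 2 over all its proximal tubule cells. Without such cells Il1b was at 11.4 and 7.22 CPM in mutants and at 2.23 and 1.5 CPM in wild types, still with both mutants above. The 10 macrophage markers, all detected in every library, summed to 1702 and 1463 CPM in mutant proximal tubule cells and 1014 and 507 CPM in wild-type ones. Their median log2 fold change there was 2.50, with 0 of 10 called by edgeR. The 12 T cell markers, also all detected in every library, summed to 93.5 and 276 CPM in mutants and 42.2 and 46.3 CPM in wild types, and T cells make Tnf. The part of either list in the differences was not tested. The 12 immediate early genes summed to 850 and 297 CPM in mutants and 153 and 243 CPM in wild types, with 0 called and 11 at an unadjusted p under 0.05. The median mitochondrial share of UMIs did not follow the groups, at 2.73% and 15.2% in mutants, on either side of 10.8% and 10.9% in wild types.

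Cells of the proximal tubule with a UMI of the macrophage genes C1qa, C1qb or C1qc were 49.2% and 41.2% of mutant cells and 14.7% and 2.66% of wild-type cells. In T cells, which do not make C1q, such cells were 49.3% and 44.4% in mutants and 16.2% and 2.63% in wild types. Among proximal tubule cells with no C1q UMI, Il1b was at 8.27 and 10.4 CPM in mutants and 2.25 and 1.25 CPM in wild types, and the difference passed (log2 fold change 2.71, SE 0.556, edgeR adjusted p = 0.00452). Tnf in those cells had 9 and 6 UMIs in mutants and 3 and 4 in wild types and did not pass (log2 fold change 3.27, edgeR adjusted p = 0.0919).

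The share of proximal tubule cells with an Il1b UMI was 4.84% and 3.44% in mutants and 1.24% and 0.999% in wild types. T cells, which should lack the gene, had 4.02% and 3.76% in mutants and 1.28% and 1.31% in wild types. The median depth of proximal tubule cells was 2810 and 3518 UMIs in mutants and 4355 and 4378 in wild types, and that of T cells 3556 and 5043 in mutants and 4498 and 6922.5 in wild types. With cells thinned to 1000 UMIs (2226 and 1096 mutant and 1611 and 3122 wild-type tubule cells were deep enough), the tubule share was 1.71% and 0.821% in mutants and 0.372% and 0.352% in wild types. That of T cells was 1.06% and 0.747% in mutants and 0.323% and 0.242% in wild types. Before thinning the tubule share was the higher of the pair only in mutant replicate 1, and at equal depth it was the higher in all 4 libraries, with overlapping 95% intervals in each. The shares are therefore not read as Il1b expression by tubule cells, and the part of free RNA in the tubule difference was not tested.

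Wild-type replicate 2 also shaped this comparison. It supplied 96.1% and 96.2% of the cells in 2 proximal tubule clusters, led by Cyp4a14 and by D630023F18Rik. Without them Il1b was at 36.9 and 7.22 CPM in mutants and 2.24 and 1.18 CPM in wild types, with a like fold change that did not pass (log2 fold change 3.91, SE 0.725, edgeR adjusted p = 0.194). Without them the log2 fold change of Tnf was 3.77, with an edgeR adjusted p of 0.229. Both calls were also lost with RLE scaling (edgeR adjusted p = 0.0501 for Il1b and 0.0527 for Tnf), with library totals (0.187 and 0.196), with doublet calls kept (0.0949 and 0.164), without mutant replicate 1 (0.0614 and 0.261) and without wild-type replicate 2 (0.416 and 0.651), and that of Tnf also without mutant replicate 2 (0.256) and with at most 25% mitochondrial UMIs per cell (0.0663). The fold changes stayed positive in each of these fits, from 2.26 to 4.44 on the log2 scale for Il1b and from 2.54 to 4.18 for Tnf.

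**Figure D4:**
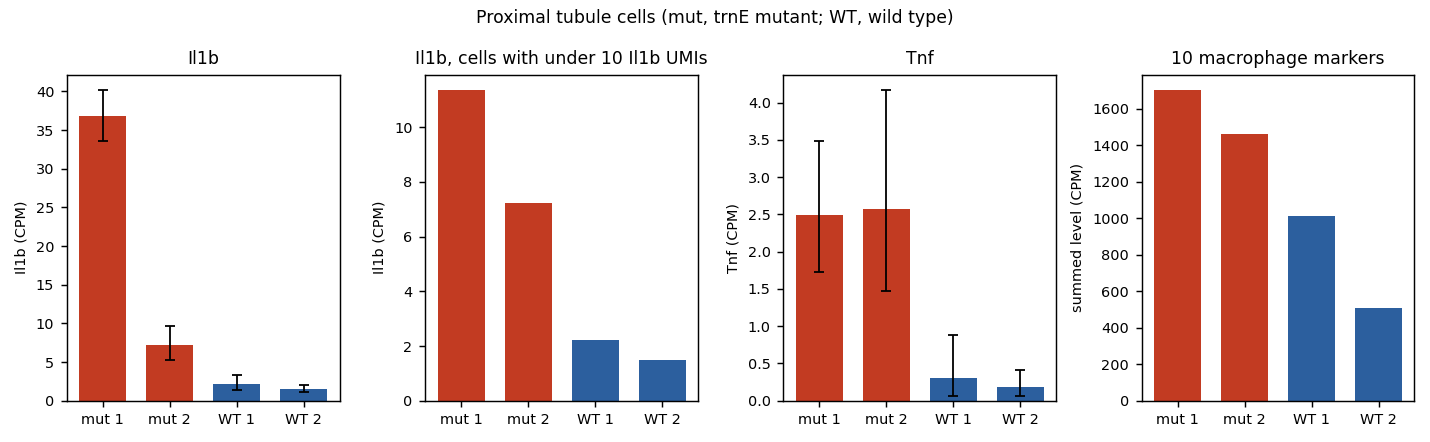
Proximal tubule cells of each library, mutants left of wild types: Il1b over all cells, Il1b over cells with under 10 Il1b UMIs, Tnf, and the summed level of 10 macrophage markers, all in CPM. Il1b, Tnf and the macrophage markers stand above wild type in each mutant, and the Il1b bar of mutant replicate 1 shrinks to 11.4 CPM without its 7 richest cells.

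In dendritic cells none of 11385 genes passed the edgeR test (0% called), and 4 of the 10 and 4.46% of all had an unadjusted p under 0.05. Il1b averaged 607 ± 75.6 CPM in mutants and 305 ± 201 CPM in wild types (SD, n = 2 each), with both mutants above both wild types (log2 fold change 1.39, SE 0.479, edgeR adjusted p = 0.657). Macrophage markers in dendritic cells summed to 915 and 820 CPM in mutants and 680 and 323 CPM in wild types, and their part in the Il1b difference was not tested. Cxcl2 was at 9.81 and 19.4 CPM in mutants and 2.28 and 3.62 CPM in wild types, again with separate groups (log2 fold change 2.68, SE 0.489, edgeR adjusted p = 0.657). The UMIs came from 16 and 8 cells in mutants and from 1 and 2 in wild types, and 1 cell held 39 of the 95 UMIs of mutant replicate 1 and another 66 of the 123 UMIs of mutant replicate 2. The share of dendritic cells with a Cxcl2 UMI overlapped, at 2.10% and 2.01% in mutants and 0.257% and 3.70% in wild types. Cxcl2 passed without mutant replicate 1 (edgeR adjusted p = 0.0236), without wild-type replicate 2 (0.0385) and with no filter on low counts (0.000420). Il1rn was at 3.00 and 4.41 CPM in mutants and 1.33 and 0 CPM in wild types, with a log2 fold change of 1.99. Of the 8 genes that passed the filter, 5 had both mutants above both wild types, against 22.9% of all genes. Nlrp3 alone had both below (20.4 and 26.2 CPM in mutants, 34.0 and 36.2 CPM in wild types), against 23.5%. Il1rn passed the filter through its mutant level only, so it had to count as above. Casp1 was above by a narrow margin, at 52.8 and 80.9 CPM in mutants and 52.7 and 48.3 CPM in wild types.

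The share of dendritic cells with an Il1b UMI was 49.0% and 44.5% in mutants and 31.1% and 38.9% in wild types. With every cell thinned to 1000 UMIs it was 23.7% and 19.6% in mutants and 12.4% and 16.7% in wild types, and the groups stayed apart. An exact two-sided permutation test over 2 against 2 libraries is too small to pass 0.05 and was not read.

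In macrophages 0.0158% of 12631 genes were called by edgeR, and none of the 10 was. At an unadjusted p under 0.05 were 5.46% of all genes and 2 of the 10, Il1rn and Il10. Il1rn was at 7.64 and 6.4 CPM in mutants and 1.74 and 6.51 CPM in wild types, where the higher wild-type value rests on 3 UMIs (log2 fold change 1.82, SE 0.586, edgeR adjusted p = 0.747). Without wild-type replicate 1 its log2 fold change was 0.72 (edgeR adjusted p = 0.638). Of 14 alternatives, Il1rn passed in 1, without wild-type replicate 2 (edgeR adjusted p = 0.0168). Il10 had 30 and 25 UMIs in mutant macrophages and 0 and 1 in wild-type ones. Nlrp3 was at 32.8 and 46.1 CPM in mutants and 56.6 and 67.3 CPM in wild types, with both mutants below, but the edgeR log2 fold change was -0.32 (SE 0.321, adjusted p = 0.790). Il1a was at 1.68 and 2.07 CPM in mutants and 4.17 and 8.68 CPM in wild types, from 31 and 31 UMIs in mutants and 24 and 4 in wild types, and did not pass either (log2 fold change -1.19, edgeR adjusted p = 0.747). After TMM scaling, 3 of the 10 (Il1rn, Il10 and Pycard) had both mutants above both wild types and 2 (Il1a and Nlrp3) had both below, against 23.1% and 21.8% of all genes. This balance turned with the scaling: in CPM, Pycard alone had both mutants above, and Il18 and Tnf joined Il1a and Nlrp3 with both below.

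Il1b in macrophages had overlapping groups and a log2 fold change of 0.71 (SE 0.528, edgeR adjusted p = 0.750), and its sign turned to -0.51 without mutant replicate 1. The share of macrophages with an Il1b UMI was 58.6% and 44.3% in mutants and 40.6% and 55.2% in wild types. Il18 and Tnf had log2 fold changes of -0.10 and -0.09 in macrophages, each with an SE of 0.327. In monocytes, where edgeR called 0% of 9365 genes and none of the 10 had an unadjusted p under 0.05 (3.27% of all), Il1b had a log2 fold change of 0.36, Tnf of -1.11 and Cxcl2 of -1.05, all with overlapping groups after TMM scaling. In CPM, Cxcl2 was lower in both mutant monocyte sums (13.6 and 64.4 CPM in mutants, 66.1 and 130 CPM in wild types).

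In endothelium, where edgeR called 0% of 11621 genes and 3 of the 10 had an unadjusted p under 0.05 (2.93% of all), Il1b was at 25.5 and 13.7 CPM in mutants and 0.928 and 4.49 CPM in wild types, from 68 and 66 UMIs in mutants and 3 and 1 in wild types. The groups were apart but the difference did not pass (log2 fold change 3.99, SE 0.740, edgeR adjusted p = 0.812). Of the 66 UMIs of mutant replicate 2, 42 (63.6%) lay in 3 cells with a median of 49 macrophage marker UMIs, against 16 over all its endothelial cells. Without cells that held 10 or more Il1b UMIs, the level was 21.9 and 5.07 CPM in mutants and 0.928 and 4.49 CPM in wild types, so mutant replicate 2 was close to wild-type replicate 2. That wild-type library had 36 endothelial cells. Il1b passed there without mutant replicate 2 (edgeR adjusted p = 0.0371) and with no filter (2.97e-05), and its log2 fold change was 0.92 with doublet calls kept. Macrophage markers summed to 3471 and 3314 CPM in mutant endothelium and 2997 and 1382 CPM in wild-type endothelium, and their part in the Il1b difference was not tested. Tnf was lower there in both mutants, at 4.12 and 3.12 CPM in mutants and 14.2 and 8.97 CPM in wild types. However, 43 of the 46 UMIs of wild-type replicate 1 lay in 1 cell, and wild-type replicate 2 had 2 UMIs, both in 1 cell. The share of endothelial cells with a Tnf UMI overlapped, at 1.08% and 0.903% in mutants and 0.384% and 2.78% in wild types.

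In T cells, where edgeR called 0% of 11905 genes and 1 of the 10 had an unadjusted p under 0.05 (3.75% of all), Il1b was at 10.4 and 7.30 CPM in mutants and 2.85 and 1.74 CPM in wild types (log2 fold change 2.18, SE 0.533, edgeR adjusted p = 0.757). Macrophage markers summed to 410 and 312 CPM in mutant T cells and 111 and 96.9 CPM in wild-type ones, a like order of libraries whose part in the difference was not tested. Tnf, which T cells do make, had both mutants above both wild types and a log2 fold change of 0.86 (SE 0.394, edgeR adjusted p = 0.757). In CPM the margin was narrow, at 49.5 in mutant replicate 2 and 48.1 in wild-type replicate 1. The share of T cells with a Tnf UMI overlapped, at 13.5% and 12.8% in mutants and 13.6% and 13.1% in wild types. Il10 in B cells had both mutants below (log2 fold change -1.71, SE 0.663, edgeR adjusted p = 0.786). Its mutant levels lay under the filter on low counts, so Il10 entered that test through its wild-type level only. Its groups therefore had to lie apart, and their gap is not separate support.

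**Figure D5:**
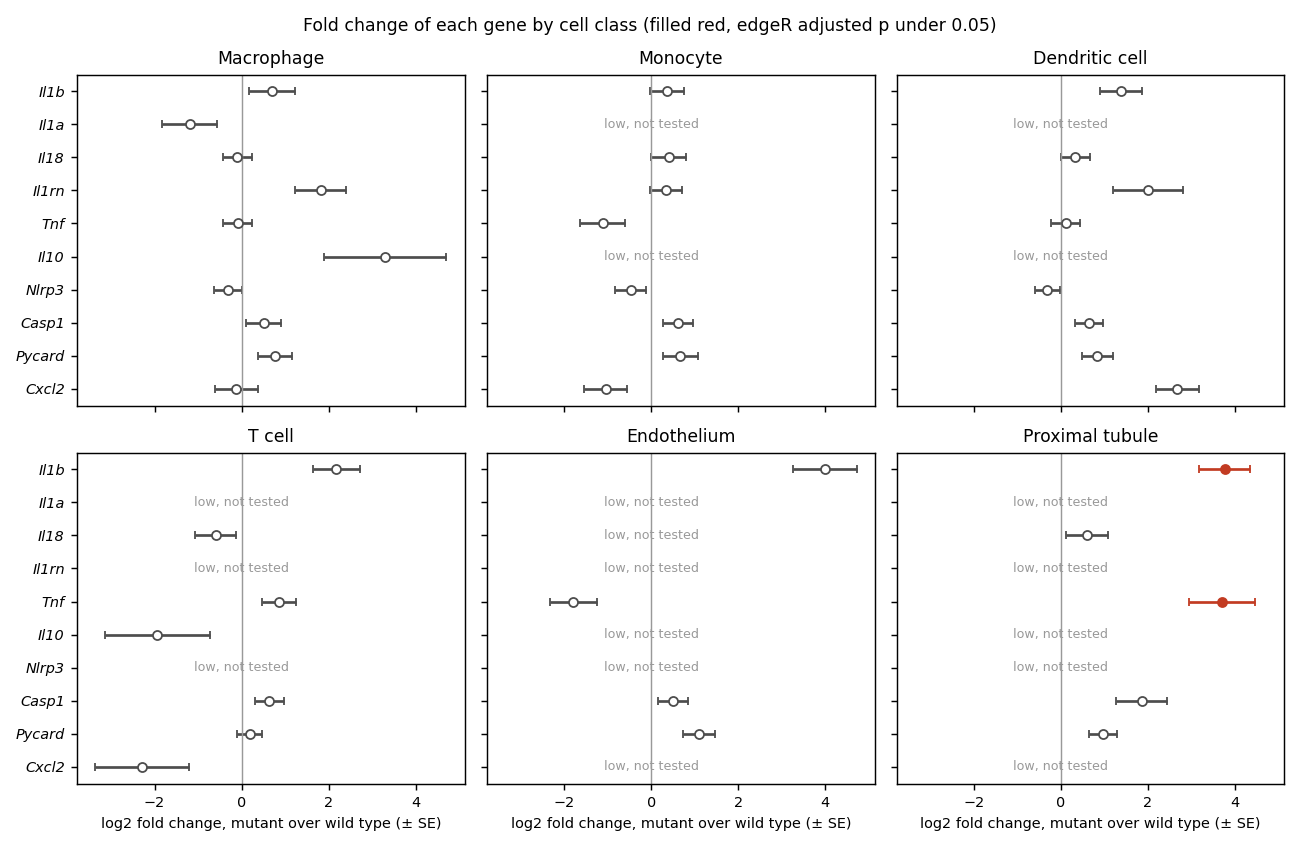
Log2 fold change (mutant over wild type, ± SE) of each of the 10 genes in each panel's cell class from the edgeR test, with filled red points past an adjusted p of 0.05. Only Il1b and Tnf in the proximal tubule are filled, and genes that did not pass the filter are marked as not tested.

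A list of 65 other genes of the pathway (sensors and inflammasome parts, receptors and binding proteins, signalling and feedback, other cytokines and chemokines), of which Il36g was not in the matrices, gave 2 calls, both in the proximal tubule. There 48 of them passed the filter and 40 had a positive fold change, with a median log2 fold change of 0.62 against 0.0172 over all genes. A gene that passed the filter through its mutant level only had to be among these 40. Of the 48, 2 rose and 0 fell, beside 0.464% of all 13373 genes called higher in mutants by edgeR. The 2 were Ltb, a membrane lymphotoxin of lymphocytes (log2 fold change 1.96, SE 0.361, edgeR adjusted p = 0.0306), and Ccl4, a chemokine of macrophages and T cells (2.36, SE 0.438, edgeR adjusted p = 0.0306). Scaled by TMM, Ltb was at 18.5 and 29.8 CPM in mutants and 5.28 and 6.93 CPM in wild types, and Ccl4 at 30.1 and 15.3 CPM in mutants and 6.36 and 2.92 CPM in wild types. The order of the libraries was that of the T cell markers for Ltb and that of the macrophage markers for Ccl4, and the part of either cell type was not tested.

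In macrophages 56 of the list passed the filter and 0 were called by edgeR, with 9 of the 56 at an unadjusted p under 0.05, beside 5.46% of all genes, and a median log2 fold change of -0.000535, against 0.0160 over all genes. Among partners of the genes described here, Il18bp, whose product binds and blocks IL-18, had a log2 fold change of 0.87 in macrophages (SE 0.356, edgeR adjusted p = 0.747) and of 1.22 in pooled myeloid cells (SE 0.299, adjusted p = 0.631). Il18r1, a chain of the IL-18 receptor, had -1.44 in macrophages (SE 0.420, edgeR adjusted p = 0.676). Gsdmd, the pore-forming target of caspase-1, had 0.40 in macrophages (SE 0.328, edgeR adjusted p = 0.755). In pooled myeloid cells none of the 10 genes passed and 1 had an unadjusted p under 0.05, as had 5.92% of all genes. Il1rn had a log2 fold change of 0.83 there (SE 0.335, edgeR adjusted p = 0.631), Pycard of 0.72 (SE 0.338, adjusted p = 0.631) and Nlrp3 of -0.31 (SE 0.268, adjusted p = 0.674), and edgeR called 0% of 13975 genes.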

How the data were processed

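Gene by cell UMI counts of 4 kidney libraries were used as deposited by the authors. They are whole-number UMI counts per gene and barcode from Cell Ranger 7.0.0 (mutants) and 7.1.0 (wild types), per the file headers, on mm10, per the submitters' processing notes, so software version and genotype cannot be told apart. The aligner settings and the depth in reads were not given in the sources used here. The libraries held 7242 to 11744 barcodes and 42121175 to 70013861 UMIs.

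The filter on barcodes required 200 genes, 500 UMIs and a mitochondrial share of UMIs no higher than 50%. Doublets were called by Scrublet in scanpy 1.11.5 (97 to 239 barcodes a library, 1.68% to 2.45%) and removed. Cells were clustered (2000 variable genes without the 10 described, 30 components, 15 neighbours, Leiden 0.10.2 at resolution 1). Clusters were named from marker lists. 2 clusters stayed unnamed, and differences from the study may come from these rebuilt names. UMIs were summed per library and class. Classes with at least 20 cells in every library were tested with edgeR 4.0.16 (filterByExpr, TMM, quasi-likelihood F test, Benjamini-Hochberg, threshold 0.05; R 4.3.3). The SE is the log2 fold change over the root of F. The test was checked on simulated counts.

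All 10 genes are reported. Other pathway genes are named where called or where they are partners of a gene described. The members and lists were chosen with earlier results of these data known. Alternatives were DESeq2 1.42.0, RLE, library totals, no filter, a replicate block, at most 25% mitochondrial UMIs, at least 1500 UMIs, doublets kept, the 10 genes allowed in clustering, each library left out, and thinning to 1000 UMIs. 3 were added after the data were seen: macrophage sums without the Ccl12 cluster, cells with no C1q UMI, and the proximal tubule without clusters of which over 90% of cells came from 1 library. The interval of each share is exact Clopper-Pearson at 95%. Limits for a count of 0 take 3 counts, and both cover counting error only. Gene positions come from the GENCODE annotation of mm10.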

Additional observations from a re-analysis of the deposited data

Results flagged for a closer look

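Il18 had both mutants above both wild types in the proximal tubule (log2 fold change 0.60) and both below in T cells (-0.60), a difference of 1.20 on the log2 scale that was not tested. Tnf had both mutants above in the proximal tubule (3.70) and both below in endothelium (-1.79), a difference of 5.48 that was not tested. In the proximal tubule Tnf passed the filter through its mutant level only, so both mutants had to lie above there. In endothelium, 43 of the 46 Tnf UMIs of wild-type replicate 1 lay in 1 cell. Without that library the endothelial log2 fold change of Tnf was -1.04, with a wild-type level that rests on 2 UMIs in 1 of 36 cells. Il10 had both mutants above in macrophages after TMM scaling (3.29) and both below in B cells (-1.71), a difference of 5.01 that was not tested. In B cells Il10 passed the filter through its wild-type level only, so both mutants had to lie below there. Without wild-type replicate 1 the macrophage log2 fold change of Il10 was 0.20. The 1 Il10 UMI of wild-type macrophages in replicate 2 put that library above both mutants in CPM.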

How the results depend on the processing

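Il1b in the proximal tubule stayed past the threshold in 9 of 15 alternatives and Tnf in 6 of 15 (edgeR or DESeq2 adjusted p 2.02e-14 to 0.416 and 0.00203 to 0.651). The number of the 10 genes called in the proximal tubule, 2 as reported, was 0 with RLE, 0 with library totals, 0 with doublet calls kept, 0 without the clusters mostly of 1 library, 1 (Il1b) with at most 25% mitochondrial UMIs and 1 (Il1b) in cells with no C1q UMI. With no filter on low counts, 1 was called in dendritic cells (Cxcl2), 1 in the distal convoluted and connecting tubule (Cxcl2), 1 in endothelium (Il1b) and 3 in T cells (Cxcl2, Il10 and Il1b). Over all genes, the alternatives that kept all libraries gave up to 74, 180, 74 and 166 calls in these classes, in that order. Leaving out 1 library gave 0 to 4 calls in the proximal tubule (0 without mutant replicate 1 or wild-type replicate 2, 1 without mutant replicate 2, 4 without wild-type replicate 1), 0 to 1 in dendritic cells, endothelium, macrophages and T cells, 0 to 2 in monocytes, in the distal convoluted and connecting tubule and over all cells, with the lone library of a group assumed to vary like the others. With 1 library left out, the log2 fold change of Il1b ran from -0.51 (without mutant replicate 1) to 1.35 in macrophages and from -0.0524 (without mutant replicate 2) to 0.68 in monocytes. With cells thinned to 1000 UMIs, which lowers every share, the mutant minus wild-type difference in the share of cells with Il1b was 7.09 percentage points against 11.7 unthinned in dendritic cells, 0.902 against 3.02 in the proximal tubule and 0.622 against 2.59 in T cells, so no dependence on depth is read from it.

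The replicate numbers were not taken to pair the mice, since no label gives a shared source. Deviations of same-numbered libraries correlated at -0.144 over all cells, 0.213 in myeloid cells, -0.218 in the proximal tubule and 0.226 in T cells. With 2 pairs, these values cannot show whether the mice were paired. With the replicate block, 1 of the 10 was called in endothelium (Il1b) and the other counts of the 10 did not change. Over all genes, the proximal tubule gave 72 calls as reported, 134 with DESeq2, 3 with RLE, 0 with library totals, 417 with no filter, 195 with the block, 159 in cells with no C1q UMI, 0 with doublets kept and 0 to 2451 with 1 library left out. In other classes the alternatives that kept all libraries gave 0 to 491 calls and leaving 1 out gave 0 to 895, against 0 to 134 as reported. Library totals moved the median log2 fold change of all genes to -0.193 in the proximal tubule and to -0.653 in plasma cells, so a gene with a fold change near 0 can change sign with the scaling. The low cell numbers of wild-type replicate 2 (58 macrophages, 36 endothelial cells) limit the myeloid and endothelial comparisons.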
